A study of Mus musculus with 8 samples.

Results

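The 9 genes described here are used to recognise hematopoietic stem and progenitor cells (HSPCs) in mice or act in them, and they were followed in whole bone marrow (BM) of leukemic mice with and without the adaptor Gab2. They are Cd34, Ly6a, Slamf1, Cd48, Cd27, Procr, Hlf, Mecom and Esam, a choice by name made with earlier results of these data known, and all 9 are among the 13305 genes of the deposited count table. There were 3 AML WT, 2 AML HET and 3 AML KO animals, with 1 library per mouse and 28009258 to 39266815 counted reads per library. All 8 mice were C57BL/6N with the alleles Mx1-Cre, Dnmt3a+/- and Flt3ITD/ITD, and carried 2 (AML WT), 1 (AML HET) or 0 (AML KO) functional Gab2 alleles. The Mx1 promoter that drives Cre responds to interferon, and according to the study Dnmt3a was recombined without an injected inducer. The Gab2 knockout allele carries a cassette in place of some exons. No age is given for these 8 mice, and mice without leukemia were not sequenced in this series.

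Blood formation starts from rare stem cells, which give rise to progenitors that divide and commit to a lineage. Surface proteins separate these cells by flow cytometry. Sca-1, the product of Ly6a, together with Kit defines a compartment that holds the stem cells, and CD150 (Slamf1) without CD48 picks out stem cells within it. CD34 rises as mouse stem cells turn into multipotent progenitors, and EPCR (Procr) and ESAM are found on stem cells and on endothelium. Hlf and Mecom (also called Evi1) encode transcription factors that stem cells need for self-renewal. Because whole BM was sequenced, more cells of a type and more RNA per cell cannot be told apart in any of these values.

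Set against AML WT, 3 of the 9 genes in AML KO BM passed the threshold (quasi-likelihood test of edgeR, adjusted p under 0.05 by Benjamini-Hochberg over all 13305 genes): Slamf1, Cd27 and Cd34 were all higher in AML KO. Over the whole table, a share of 1.77% of genes were called higher. Esam, Procr and Hlf were also higher in all AML KO mice than in any AML WT mouse, without passing. Genes of this kind, with groups that did not overlap and AML KO higher, were thus 6 of 9, against 12.3% of the table. Cd48 and Mecom overlapped between the groups, and Ly6a was set by 1 AML WT mouse. The median log2 fold change of the 9 genes was 0.74, beside −0.02 over all genes.

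The 3 genes that passed lie on chromosomes 1 (Slamf1 and Cd34) and 6 (Cd27), and their upstream sequences are shown because these genes rose together. Of the 9 genes, 7 have an entry in the RefSeq promoter table (GRCm38.p6), and the first 240 bases of each entry, which end 11 bases before the annotated start, were read. Capitals mark GATAA or its reverse complement TTATC, the core bound by GATA factors.
Slamf1, chr1:171766882-171767121, plus strand: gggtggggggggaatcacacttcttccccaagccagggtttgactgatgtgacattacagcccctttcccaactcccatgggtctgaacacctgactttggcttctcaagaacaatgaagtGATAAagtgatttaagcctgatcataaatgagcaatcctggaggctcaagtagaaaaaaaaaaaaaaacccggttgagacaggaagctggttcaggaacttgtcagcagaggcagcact
Cd27, chr6:125237038-125237277, minus strand: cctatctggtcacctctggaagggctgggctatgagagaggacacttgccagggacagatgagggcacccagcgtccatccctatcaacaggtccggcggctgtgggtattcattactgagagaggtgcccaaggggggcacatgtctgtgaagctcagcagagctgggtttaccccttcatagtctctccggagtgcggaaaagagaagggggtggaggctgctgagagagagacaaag
Cd34, chr1:194938571-194938810, plus strand: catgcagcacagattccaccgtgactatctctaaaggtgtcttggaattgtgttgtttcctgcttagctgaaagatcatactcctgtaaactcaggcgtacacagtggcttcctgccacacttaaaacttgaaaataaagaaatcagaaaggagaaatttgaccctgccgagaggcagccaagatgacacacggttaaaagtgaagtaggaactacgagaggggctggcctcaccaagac
The Slamf1 sequence holds GATAA once, 129 to 125 bases before the start, and those of Cd27 and Cd34 hold neither strand of it. Among the other members, both Mecom windows hold it and those of Cd48, Hlf and Procr do not, while 22% of all 32851 windows do. TTCNNNGAA, the form bound by STAT5, is in none of the 7 members' windows and in 6.8% of all windows. The motifs were chosen with the values of these genes known, and a match describes letters and not binding.

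Slamf1 (ENSMUSG00000015316, chr1:171767127-171801184) encodes CD150, a receptor that binds its own kind on neighbouring cells. Its counts were 12, 10 and 20 in the AML WT mice, 13 and 31 in the AML HET mice and 57, 51 and 67 in the AML KO mice. As CPM (counts scaled to library size with TMM factors) these were 0.295, 0.316 and 0.612 in AML WT, 0.456 and 0.988 in AML HET and 1.86, 1.86 and 1.97 in AML KO. These last lay close together and far above the others, while the AML HET mice spanned the gap with 1 of them inside the AML WT range. The means were 0.408 ± 0.177 CPM (SD, n = 3) in AML WT and 1.898 ± 0.0661 (SD, n = 3) in AML KO, or 2.22 apart on the log2 scale (95% interval 1.29 to 3.15, standard error 0.41, adjusted p = 0.0265, edgeR). With each of the 8 mice left out in turn it was 2.01 to 2.63. The call was lost in 4 of these fits, without AML WT replicate 1 or 2 or AML KO replicate 1 or 3, with adjusted p up to 0.124 by edgeR. With so few counts, counting error adds to the spread between mice.

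Cd34 (ENSMUSG00000016494, chr1:194938819-194961279), a sialomucin of progenitors, was at 176, 168 and 194 CPM in the AML WT mice, 246 and 205 in the AML HET mice and 349, 270 and 279 in the AML KO mice. The groups did not overlap, and both AML HET mice lay between the AML WT and the AML KO mice. The mean rose from 179 ± 13.2 CPM (SD, n = 3) to 299.5 ± 43.2 (SD, n = 3), a log2 fold change of 0.74 (95% interval 0.43 to 1.05, standard error 0.14, adjusted p = 0.0277, edgeR). It ranged from 0.62 to 0.81 with single mice left out, and missed the threshold without the same 4 mice as Slamf1, with adjusted p up to 0.132 by edgeR. Gm16897, on the opposite strand, shares 148 exon bases with Cd34 and had 17 to 40 counts per mouse, beside 5319 to 10677 for Cd34.

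Cd27 (ENSMUSG00000030336, chr6:125232622-125237010) encodes a receptor of the TNF family on progenitors and lymphocytes. Its values were 21.2, 24.7 and 30.2 CPM in AML WT, 32.0 and 34.0 in AML HET and 48.0, 39.9 and 41.6 in AML KO. As for Cd34, the 3 groups were fully separated, with AML HET in the middle. From 25.4 ± 4.55 CPM (SD, n = 3) in AML WT to 43.2 ± 4.26 (SD, n = 3) in AML KO, the log2 fold change was 0.77 (95% interval 0.42 to 1.12, standard error 0.16, adjusted p = 0.0380, edgeR). It stayed between 0.64 and 0.91 with single mice left out, but passed in 2 of the 8 fits, those without AML WT replicate 3 or AML KO replicate 2, and reached an adjusted p of 0.150 by edgeR in the others. With the AML HET mice out of the fit, the adjusted p was 0.0757 by edgeR.

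**Figure D1:**
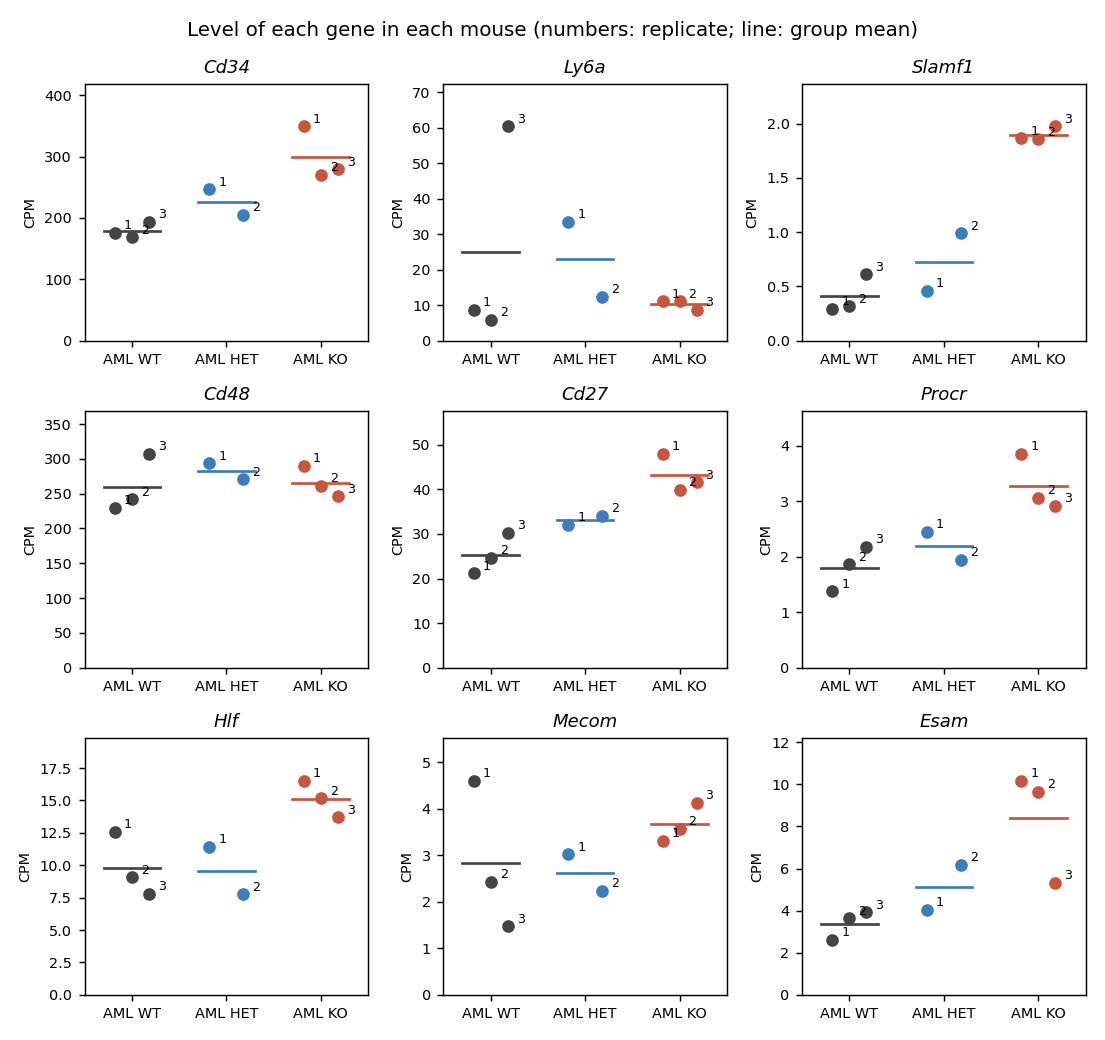
Level of each of the 9 genes in CPM (vertical axes, from 0) in each mouse, with AML WT, AML HET and AML KO on the horizontal axis, replicate numbers beside the points and lines at the group means. Slamf1, Cd34 and Cd27 show 3 AML KO points above all AML WT points, and the Ly6a mean of AML WT is lifted by replicate 3 at 60.3 CPM.

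Esam (ENSMUSG00000001946), an adhesion molecule of endothelium, platelets and stem cells, was at 2.61, 3.63 and 3.92 CPM in AML WT, 4.03 and 6.18 in AML HET and 10.2, 9.64 and 5.33 in AML KO. AML KO replicate 3 was well below the other 2 AML KO mice and below AML HET replicate 2, yet above all AML WT mice. AML KO exceeded AML WT by 1.31 on the log2 scale (95% interval 0.62 to 2.00, adjusted p = 0.0707, edgeR). DESeq2, with an adjusted p of 0.00202, was the 1 of 9 other alternatives that called it, and limma-voom did not. No fit with a single mouse left out called it by edgeR, with an adjusted p of 0.219 without AML KO replicate 1.

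Procr (ENSMUSG00000027611), the receptor of protein C, was at 1.38, 1.86 and 2.17 CPM in AML WT, 2.45 and 1.94 in AML HET and 3.86, 3.06 and 2.92 in AML KO. Again all AML KO mice were above all other mice, while AML HET and AML WT overlapped. Its log2 fold change in AML KO against AML WT, 0.86 (95% interval 0.25 to 1.48), had an adjusted p of 0.177 by edgeR.

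Of the transcription factors, Hlf (ENSMUSG00000003949) was at 12.6, 9.07 and 7.81 CPM in AML WT, 11.4 and 7.74 in AML HET and 16.5, 15.2 and 13.7 in AML KO. All AML KO mice were again highest, and AML HET did not stand apart from AML WT. AML KO was 0.62 above AML WT on the log2 scale (95% interval 0.12 to 1.12, adjusted p = 0.225, edgeR). Mecom (ENSMUSG00000027684) was at 4.60, 2.43 and 1.47 CPM in AML WT, 3.02 and 2.23 in AML HET and 3.30, 3.57 and 4.13 in AML KO. Its AML WT mice spread more widely than the AML KO mice and enclosed all of them. The log2 fold change of 0.36 (95% interval −0.49 to 1.22, adjusted p = 0.606, edgeR) ranged from 0.06 without AML WT replicate 3 to 0.90 without AML WT replicate 1. The gene has a long form, Mds1-Evi1, and a short form, Evi1, which counts per gene cannot separate.

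Cd48 (ENSMUSG00000015355), carried by most blood cells other than stem cells, was at 230, 242 and 308 CPM in AML WT, 294 and 271 in AML HET and 290, 262 and 246 in AML KO. No genotype stood apart, and the highest value was that of AML WT replicate 3. The interval of its log2 fold change in AML KO against AML WT, 0.03, ran from −0.28 to 0.34 (adjusted p = 0.908, edgeR). Cd48 lies next to Slamf1 in the SLAM gene cluster, at chr1:171682009-171705258, 61868 bases away with no listed gene between them. In counts, Slamf1 was 0.128%, 0.131% and 0.199% of Cd48 in the AML WT mice, 0.155% and 0.365% in the AML HET mice and 0.643%, 0.710% and 0.801% in the AML KO mice. This ratio, which needs no scaling between libraries, was higher in every AML KO mouse than in any other mouse.

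Of 13 listed SLAM family and adaptor genes, 11 were in the table, with a median log2 fold change of −0.26. Slamf1 was the 1 of these that passed, against 2.09% of the table. The count was 2 without AML KO replicate 2, and 0 without AML WT replicate 1 or 2 or AML KO replicate 1 or 3. Slamf9 had −1.31 (adjusted p = 0.233, edgeR). Slamf7, singled out after its values were seen, was at 47.1, 37.7 and 72.6 CPM in AML WT, 46.0 and 29.4 in AML HET and 19.4, 28 and 17.3 in AML KO, with AML KO below AML WT in each mouse. Its log2 fold change was −1.28 (standard error of 0.28, with adjusted p = 0.0555, edgeR), opposite in sign to that of Slamf1 on the same chromosome.

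**Figure D2:**
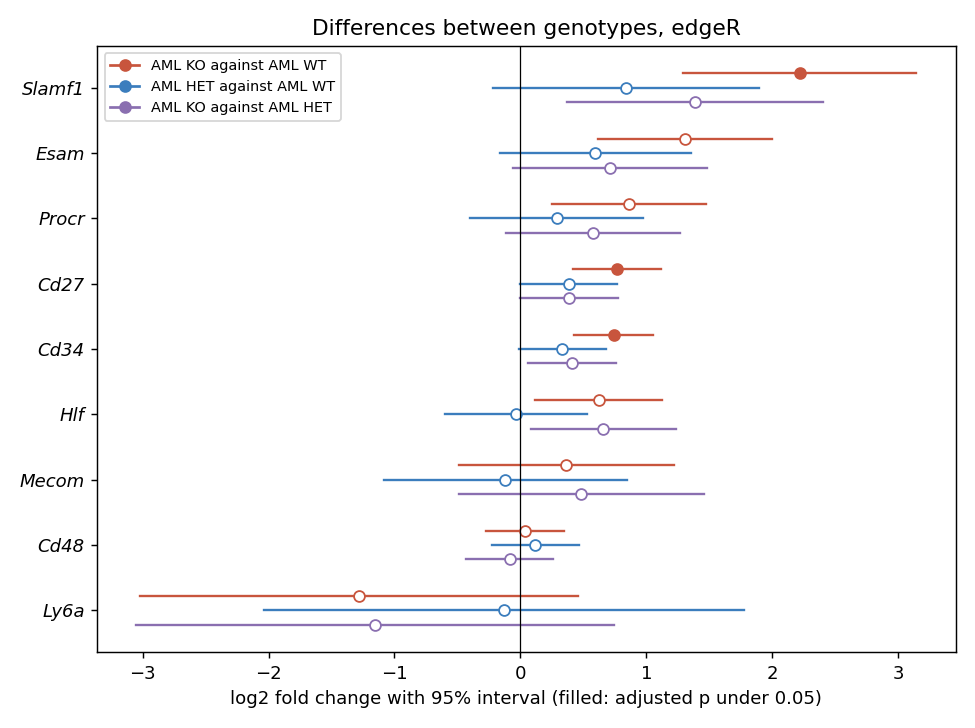
Log2 fold changes (horizontal axis) of the 9 genes with 95% intervals in 3 comparisons, filled where edgeR's adjusted p was under 0.05. Slamf1, Cd27 and Cd34 are filled in AML KO against AML WT, no gene is filled in the others, and Ly6a has the widest intervals.

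Ly6a (ENSMUSG00000075602, chr15:74994877-74998031) encodes Sca-1, a small membrane-anchored protein whose gene also responds to interferon. It was at 8.63, 5.91 and 60.3 CPM in AML WT, 33.4 and 12.3 in AML HET and 11.1, 11 and 8.63 in AML KO. AML WT replicate 3 and AML HET replicate 1 were far above the other 6 mice, and the 3 AML KO mice lay at or just above the level of AML WT replicate 1. The mean of 25.0 ± 30.7 CPM (SD, n = 3) in AML WT therefore described none of its mice. With all mice its log2 fold change in AML KO against AML WT was −1.28 (95% interval −3.02 to 0.46, adjusted p = 0.379, edgeR). Without AML WT replicate 3 it was 0.495 (95% interval −0.35 to 1.34, adjusted p = 0.453, edgeR), so 1 mouse set its sign. Without that mouse and AML HET replicate 1 it was 0.49 (95% interval −0.10 to 1.08, adjusted p = 0.357, edgeR).

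Interferon-induced genes were high in the same mice. Over a list of 41 such genes, the median log2 difference from the AML WT mean was −0.47, −0.81 and 1.32 in the AML WT mice, 1.14 and −0.15 in the AML HET mice and −0.27, −0.28 and −0.49 in the AML KO mice. AML WT replicate 3 had the highest AML WT value in 40 of the 41 genes. The 3 genes whose log2 CPM over the 8 mice was most like that of Ly6a, of 11661 searched, were Usp18 (r = 0.990), Ifit1 (r = 0.987) and Oasl2 (r = 0.985), all on that list. Usp18, which restrains interferon signaling, was at 9.56, 7.40 and 59.6 CPM in AML WT, 45.0 and 16.7 in AML HET and 13.6, 12.2 and 9.61 in AML KO, nearly the pattern of Ly6a. Of the 41 genes, 0 passed between AML KO and AML WT by edgeR and 6 had an unadjusted p under 0.05, all lower, against 7.88% of the table. DESeq2 and limma-voom called 0 of the 41. The 2 with the largest changes were Phf11d at −2.22 and Ifi44 at −2.07, which became −0.77 and 0.22 without AML WT replicate 3.

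As those 2 mice stood apart, the relation was taken over the other 6. The 2 left out were those farthest from the median of the 8 mice in the interferon list itself. Among them the Ly6a level and the median of the interferon list had a Pearson correlation of 0.998 (exact two-sided permutation p = 0.0028, 0.025 after Benjamini-Hochberg adjustment over the 9 genes) and a Spearman correlation of 0.943 (exact p = 0.0167, adjusted 0.150). For the other 8 genes the adjusted p of the Pearson correlation was 0.454 to 0.971 by the exact permutation test, which with 6 mice cannot show that a relation is absent. Cd48 had a Pearson correlation with the interferon list of 0.676 over these 6 mice and 0.816 over all 8. Its correlation with Ly6a over all 8 mice was 0.832. The 6 mice include all 3 genotypes, each with too few mice for a value of its own, and the permutation did not keep the genotypes apart. Since the mice were chosen by the same interferon values, these p-values describe the 6 mice and are not an independent test. Within the Ly6 family, 8 of 15 listed genes were in the table and 0 passed by edgeR. At an unadjusted p under 0.05 there were 2, both higher, against 9.77% of the table. DESeq2 called 2 and limma-voom 1, and edgeR called 1 without AML WT replicate 1 or 3. Ly6i followed the same mice, at 0.983, 1.33 and 14.7 CPM in AML WT, 12.9 and 4.05 in AML HET and 2.03, 2.07 and 1.15 in AML KO. Ly6g, a neutrophil marker, had the largest change of the family, 3.14 (adjusted p = 0.0524, edgeR).

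**Figure D3:**
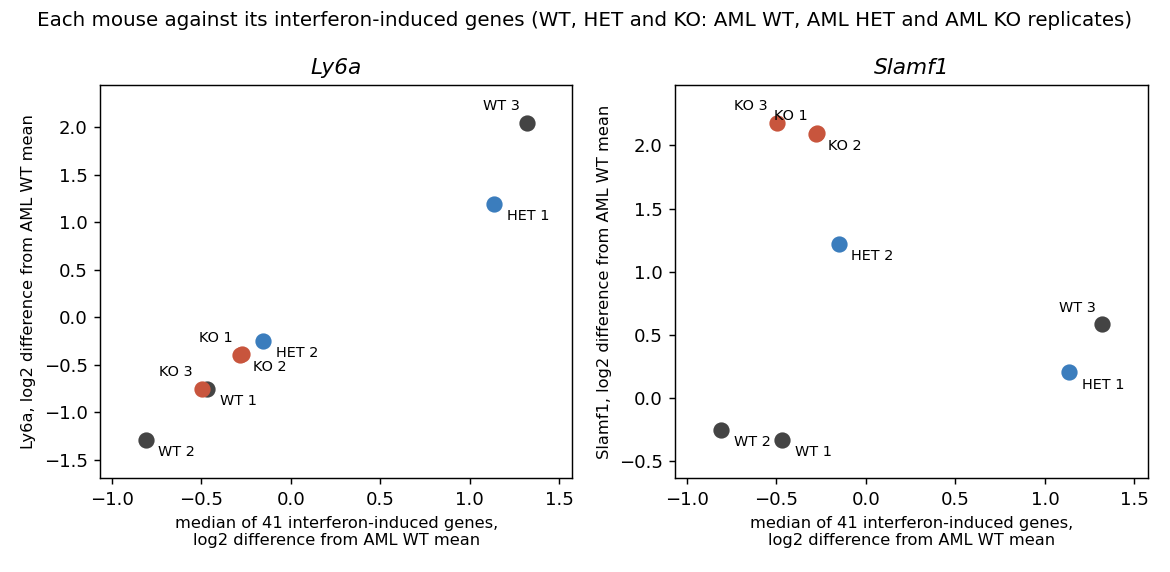
Log2 level of Ly6a (left) and Slamf1 (right) in each mouse against the median of 41 interferon-induced genes, both as differences from the AML WT mean. For Ly6a the mice lie along 1 line, with AML WT replicate 3 and AML HET replicate 1 at its upper end, while for Slamf1 the 3 AML KO mice lie at the top.

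Kit, which is set beside Sca-1 in sorting, had a log2 fold change of 0.08 in AML KO against AML WT (adjusted p = 0.831, edgeR). In counts, Ly6a was 7.74%, 7.09% and 91.9% of Kit in the AML WT mice, 42.7% and 14.9% in AML HET and 14.0%, 10.4% and 9.58% in AML KO. AML WT replicate 3 and AML HET replicate 1 stood apart in this ratio as they did in CPM.

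**Figure D4:**
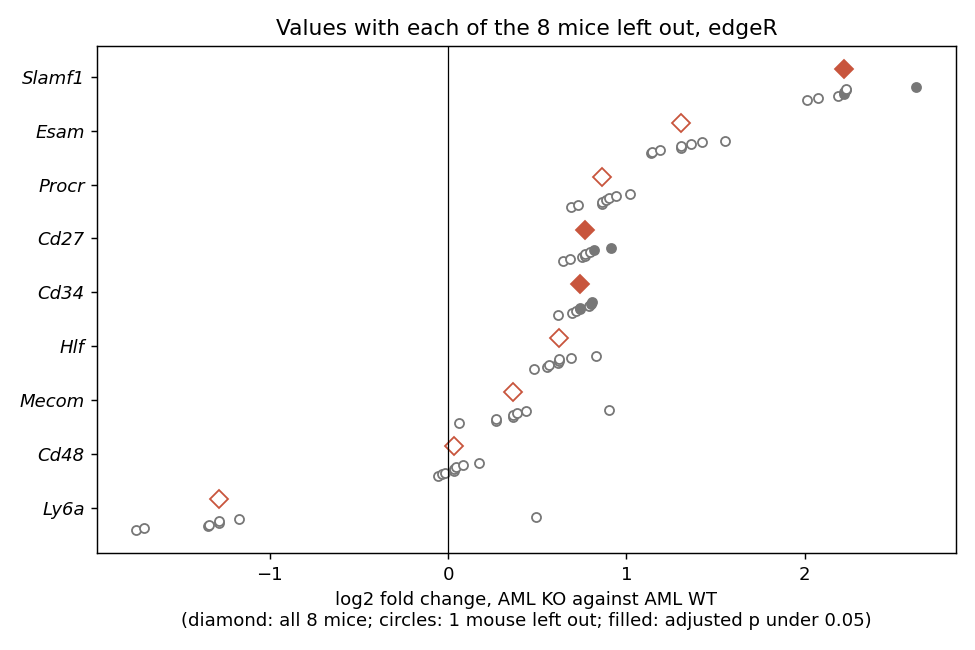
Log2 fold change of each gene in AML KO against AML WT with all 8 mice (diamonds) and with each mouse left out (circles), filled where edgeR's adjusted p was under 0.05. Ly6a moves from below 0 to 0.495 without AML WT replicate 3, and Cd48 lies on both sides of 0.

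Loss of 1 Gab2 allele was compared with AML WT to ask whether the genes follow the dose of Gab2. Between AML HET and AML WT, 0 of the 9 genes passed by edgeR, where 0.0225% of the table passed, and 0 had an unadjusted p under 0.05, against 2.47%. DESeq2 and limma-voom also called 0 of the 9. Cd34, Cd27 and Esam were higher in both AML HET mice than in all AML WT mice, 3 of 9 against 9.53% of the table. Their log2 fold changes were 0.33 (95% interval −0.01 to 0.68) for Cd34, 0.38 (95% interval −0.0028 to 0.77) for Cd27 and 0.60 (95% interval −0.16 to 1.36) for Esam. Slamf1 had 0.84 (95% interval −0.22 to 1.89), which was 0.17 without AML HET replicate 2.

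Between AML KO and AML HET, 0 of the 9 genes and 0% of the table passed by edgeR, with 780 genes at an unadjusted p under 0.05. DESeq2 called 77 genes, none of the 9 among them, and limma-voom 0. At an unadjusted p under 0.05, 3 genes were higher in AML KO, namely Slamf1 (1.38), Hlf (0.66) and Cd34 (0.41), against 3.52% of the table. AML KO lay above AML HET without overlap for 6 genes (13.2% of the table) and below it for Ly6a (11%). The AML HET group enters both comparisons, and the AML WT mice are shared by the 2 comparisons against AML WT.

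A fit with the number of Gab2 alleles as a single term used all 8 mice at once. Per allele lost, 4 of the 9 genes were called higher (adjusted p under 0.05, edgeR), against 2.11% of the table. Slopes were above 0 for 8 of the 9 genes and for 48.1% of the table. The log2 slopes were 1.12 for Slamf1 (standard error 0.19, adjusted p = 0.0147, edgeR), 0.37 for Cd34 (standard error 0.06, adjusted p = 0.0149, edgeR), 0.38 for Cd27 (standard error 0.07, adjusted p = 0.0203, edgeR) and 0.65 for Esam (standard error 0.14, adjusted p = 0.0416, edgeR). With single mice left out, Slamf1 and Cd34 each passed in 6 of 8 fits, Cd27 in 5 and Esam in 1. This fit rests on the same mice as the pairwise comparisons and assumes equal steps between alleles.

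Levels can be set against each other only per length, here as CPM per kb of annotated exons. In AML WT the order was Cd48 (218.5 ± 35.2, SD, n = 3), Cd34 (24.6 ± 1.80), Ly6a (20.7 ± 25.4), Cd27 (10.9 ± 1.95), Hlf (1.47 ± 0.371), Esam (1.18 ± 0.241), Procr (0.889 ± 0.198), Mecom (0.228 ± 0.129) and Slamf1 (0.0662 ± 0.0288). The ranges of Cd34 and Ly6a, Ly6a and Cd27, Hlf and Esam, and Esam and Procr overlapped, and the other neighbours did not. Slamf1 and Mecom, the genes with the lowest levels, differed in AML WT but overlapped in AML KO, at 0.308 ± 0.0107 and 0.295 ± 0.0338 CPM per kb (SD, n = 3 each). Per kb of the longest transcript, Esam came before Hlf in AML WT, at 1.82 and 1.74 CPM per kb, and Cd34 was at 58.5. By that length Slamf1 and Mecom did not overlap in AML KO, at 0.420 to 0.447 and 0.580 to 0.725 CPM per kb. Nor did Esam and Procr in AML WT, at 1.40 to 2.10 and 0.856 to 1.35 CPM per kb.

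The genes most like each of the other members in log2 CPM over the 8 mice are given as a description, since genotype and library are shared by all points. For Slamf1 they were Tinagl1 (r = 0.985), Mcu (r = 0.983) and Lrg1 (r = 0.979), and for Cd34 Tcrg-C1 (r = 0.993), Ms4a2 (r = 0.983) and Ctla2a (r = 0.980). Cd27 was most like Lin28a (r = 0.997), Wfdc21 (r = 0.993) and Pglyrp1 (r = 0.991). Cd48 was most like Ifitm3 (r = 0.974), H2-T23 (r = 0.973) and Bst2 (r = 0.959), of which Bst2 is on the interferon list. Esam was most like Rhog (r = 0.986), Adipoq (r = 0.981) and Rab20 (r = 0.978), and Procr most like Ltb (r = 0.987), Scrg1 (r = 0.986) and Rab13 (r = 0.981). The best matches were weaker for Hlf, with Usp2 (r = 0.968), Adgrl4 (r = 0.958) and Alpk3 (r = 0.955), and for Mecom, with Prrg1 (r = 0.944), Trmt2b (r = 0.942) and Nefh (r = 0.927).

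Other genes used for stem cells were compared in the same way. Of 46 listed, 43 were in the table, with a median log2 fold change of 0.45 in AML KO against AML WT. By edgeR, 11 of the 43 were called higher and 0 lower, against 1.77% and 0.323% of all genes. The count was 6 when AML WT replicate 1 was left out, 2 when replicate 2 of that genotype was, and 8 to 12 for any other mouse. Changes of named genes below are on the log2 scale. Itga2b, the platelet integrin CD41 that early stem cells also carry, was at 12.8, 13.4 and 12.5 CPM in AML WT, 19.9 and 32.2 in AML HET and 122, 75.5 and 78.7 in AML KO. It stood apart in every AML KO mouse, and its log2 fold change was 2.84 (standard error of 0.24, with adjusted p = 0.00129, edgeR). Vwf, a clotting factor of platelets and endothelium, rose by 1.85 (adjusted p = 0.00884, edgeR), and Gata2, a transcription factor of stem cells and early megakaryocytes, by 1.76 (adjusted p = 0.0102, edgeR). Pdzk1ip1 had the largest change of the list, 3.67 (adjusted p = 0.0149, edgeR).

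**Figure D5:**
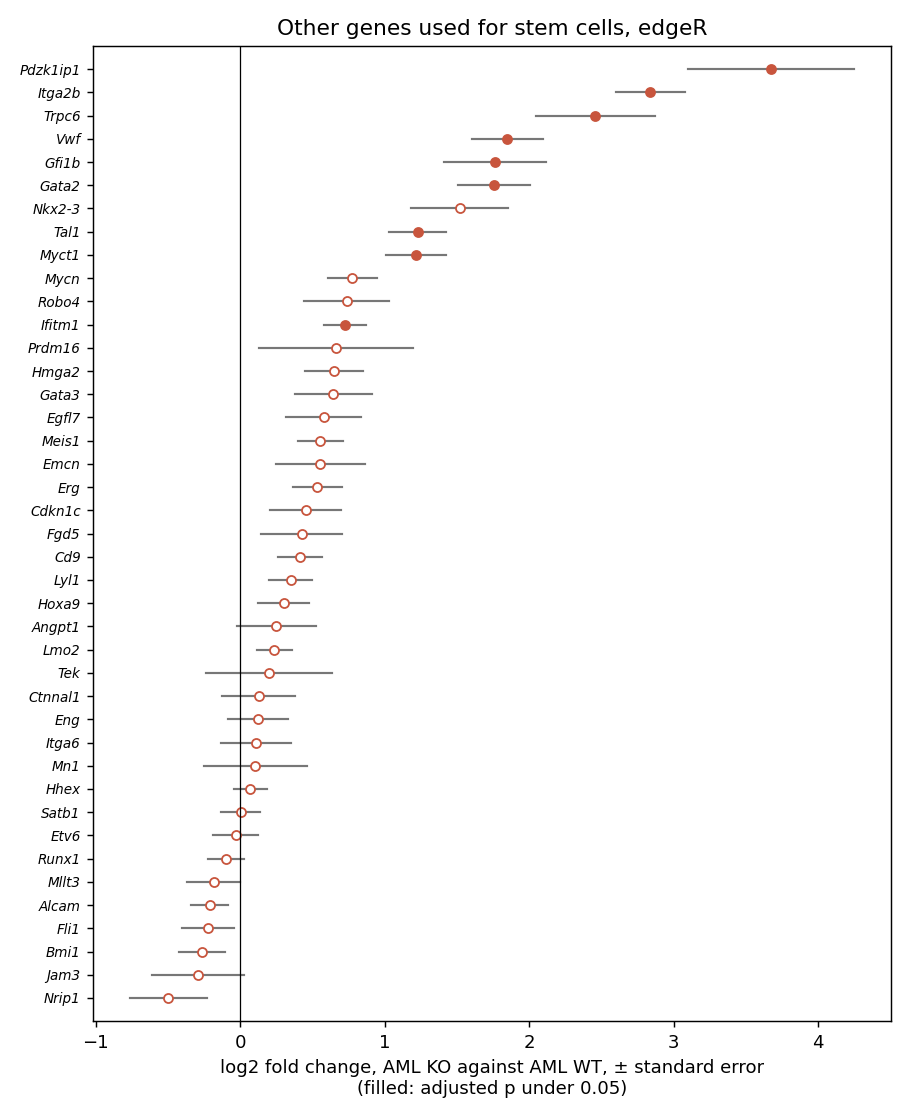
Log2 fold change in AML KO against AML WT (horizontal axis) with its standard error for 41 of the 43 other genes used for stem cells, filled where edgeR's adjusted p was under 0.05. The 9 filled genes drawn are all above 0, and 32 genes are not filled.

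Of 22 progenitor genes, all in the table, 2 were called higher and 1 lower by edgeR, with a median of 0.14. Over all genes 1.77% were called higher and 0.323% lower, which also applies to the lists that follow here. Prom1 (CD133) rose by 1.78 (adjusted p = 0.00898, edgeR) and Adgrg1 (GPR56) by 0.68 (adjusted p = 0.0435, edgeR), while Il1rl1, the receptor of interleukin 33, fell by 1.45 (adjusted p = 0.0208, edgeR). With single mice left out, Adgrg1 passed in 1 of 8 fits, Prom1 in 7 and Il1rl1 in 6, and the count for the list was 1 without AML KO replicate 3 and 0 without AML WT replicate 2. Among 14 partners of Hlf and Evi1, 3 were called higher and 0 lower with a median of 0.29. Among them were Gata2 and Zfpm1, the latter a GATA cofactor that rose by 1.18 (adjusted p = 0.0457, edgeR) but passed in 2 of the 8 fits, and 0 of the 14 passed by edgeR without AML WT replicate 2. Among 16 partners of Cd27, Procr and Esam in the table, of 19 listed, 1 was called higher and 0 lower with a median of 0.09. It was F2rl2, a thrombin receptor, at 1.49 (adjusted p = 0.0174, edgeR, lost without AML WT replicate 1 or 2 or AML KO replicate 1), and Selp, the adhesion molecule P-selectin, had 0.94 (adjusted p = 0.243, edgeR). In the HSPC marker list, which holds 6 of the members, 3 of 10 genes passed, Slamf1, Cd34 and Gata2, with 1 left without AML WT replicate 1 or AML KO replicate 1 or 3 and 0 without AML WT replicate 2.

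Markers of mature lineages moved in the same comparison, where 1.77% of the table was called higher. Of 12 megakaryocyte and platelet markers 11 were called higher (7 without AML WT replicate 2), with a summed level of 96.0 to 133 CPM in AML WT, 135 and 177 in AML HET and 348 to 474 in AML KO. Ppbp, a platelet chemokine, rose by 3.44 (adjusted p = 0.000882, edgeR), and Pf4, a platelet granule protein, by 3.99 (adjusted p = 0.00206, edgeR). Erythroid markers were called higher in 10 of 12, with sums of 337 to 467 CPM, 727 and 2288, and 1591 to 5541 for the 3 genotypes in the same order, and Slc4a1, the anion exchanger of red cells, rose by 3.88 (adjusted p = 0.0102, edgeR). Mature neutrophil markers were called higher in 7 of 12, with sums of 1363 to 4794, 5505 and 6196, and 10627 to 17335 CPM, and Ngp rose by 2.25 (adjusted p = 0.0166, edgeR). These 2 counts depended on single mice. By edgeR, erythroid calls numbered 1 and 0 when AML WT replicate 1 or 2 was left out, and 4 and 5 for AML KO replicate 1 or 3. Neutrophil calls numbered 0 and 11 when AML WT replicate 2 or 3 was left out, 2, 4 and 3 for AML KO replicates 1, 2 and 3, and 4 for either AML HET mouse. Their part in the values of Slamf1, Cd34, Cd27, Esam, Procr and Hlf was not tested. None of the listed markers in the table had a count of 0 in any mouse.

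For Esam, Procr and Cd34, which endothelium also carries, the endothelial list holds 12 markers, Esam itself among them. Of the other 11, 10 had a log2 fold change above 0, with a median of 0.56. An unadjusted p under 0.05 was found for 5, all higher, against 9.77% of the table. Called higher were 2, Vwf and Tie1 (1.25, adjusted p = 0.0152, edgeR), and 0 by edgeR without AML WT replicate 2. Their sums without Esam were 147 to 158 CPM in AML WT, 146 and 169 in AML HET and 197 to 256 in AML KO. Cdh5, the cadherin that defines endothelium, was at 8.75, 5.41 and 5.66 CPM in AML WT, 5.01 and 4.37 in AML HET and 2.75, 12.4 and 5.54 in AML KO. Its AML KO values spread around those of AML WT, and AML KO was 0.06 above AML WT on the log2 scale (standard error of 0.46, adjusted p = 0.954, edgeR). The part of endothelium in these values was not tested. For Cd27 and Cd48, which lymphocytes carry, 1 of 14 T and NK cell markers was called higher, Thy1 (0.91, adjusted p = 0.0255, edgeR, passing in 2 of the 8 fits with a mouse left out), and 0 of 11 B cell markers in the table passed by edgeR, with 0 at an unadjusted p under 0.05 and 0 called by DESeq2 and limma-voom. The T and NK sums were 149.8 to 212, 201 and 227, and 222 to 260.2 CPM in the same order. Nkg7 and Thy1 had the highest means of that list, at 84.8 and 67.8 CPM over the 8 mice. The median log2 fold change of the 14 markers was 0.27, with 11 above 0. Of 10 monocyte markers 0 passed by edgeR, 3 had an unadjusted p under 0.05, DESeq2 called 1, limma-voom called 0 and the median was −0.24. Over the table, 17.7% of genes had an unadjusted p under 0.05 in this comparison, in either direction, and 2.09% passed by edgeR. Gab2 itself, the check of the labels, was at 93.9, 68.5 and 61.6 CPM in AML WT, 55.8 and 50.8 in AML HET and 35.0, 47.2 and 40.2 in AML KO, in the order of the labels without overlap. AML KO kept 0.546 of the AML WT level (adjusted p = 0.0420, edgeR, and 0.159 without AML KO replicate 3). AML HET was −0.49 from AML WT on the log2 scale (adjusted p = 0.99, edgeR). Lower without overlap against AML WT were 9.83% of all genes in AML KO and 8.61% in AML HET.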

How the data were processed

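RNA of whole BM from 8 mice was analysed, 3 AML WT, 2 AML HET and 3 AML KO, grouped by their labelled genotype. The authors deposited raw counts per gene without normalization. Trimmomatic 0.36, STAR 2.5.2b and mm10 are named in the submitters' processing notes. The counting tool, annotation and use of strand are not given in the sources used here. The table has no gene with fewer than 106 counts in all. Of its 13305 identifiers, 13266 were matched to GENCODE M21 (GRCm38).

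Counts were normalized with TMM in edgeR 4.0.16 (R 4.3.3). filterByExpr removed 0 genes. The robust quasi-likelihood test used all 8 mice with genotype as its only term, or with the number of functional Gab2 alleles. P-values of all genes were adjusted together (Benjamini-Hochberg), and 0.05 was the threshold. Standard errors were derived from the F statistic. CPM use the TMM library sizes, and log2 CPM for likeness a prior count of 2. The p-values set the difference between genotypes against the spread between mice of a genotype. Whether replicates came from separate litters is not stated, so a litter difference cannot be told apart from genotype. Likeness was searched among genes with a mean of at least 1 CPM.

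Alternatives were DESeq2 1.42.0, limma-voom (limma 3.58.1), other normalizations and filters, the replicate number as a block, AML WT and AML KO mice alone and each mouse left out. Leaving out AML WT replicate 3 and AML HET replicate 1 together was added after seeing the data. The tests were also tested on simulated data.

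The 9 genes, the gene and marker lists and the motifs were chosen with earlier results of these data known. Besides the 9 genes, those named are, per list, up to 5 that passed with the smallest p and the 2 with the largest change, and the 3 most alike genes per member. Some genes under this rule are not reported here. Kit, Slamf7, Cdh5 and Gm16897 were named after their values were seen. Listed genes outside the table were not analysed here. Python 3.11.15 with scipy 1.17.1, pandas 2.3.3 and matplotlib 3.10.9 served for correlations and figures.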

Additional observations from a re-analysis of the deposited data

How the results depend on the processing

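Between AML KO and AML WT, the direction of all members but Ly6a and Cd48 held under every alternative run. In this comparison DESeq2 called Cd34, Slamf1, Cd27 and Esam, and limma-voom Cd34, Slamf1 and Cd27. The number of genes past the threshold, 278, was 730 with DESeq2 and 40 to 370 with single mice left out, and the members past it, 3, were 0 to 3 (0 without AML WT replicate 1 or 2 or AML KO replicate 1 or 3) and 1 without AML WT replicate 3 and AML HET replicate 1 together. Between AML HET and AML WT, the 3 genes became 59 with DESeq2, 1 with limma-voom, 1 without those 2 mice and 1 to 5 with single mice left out. Between AML KO and AML HET, 0 genes became 77 with DESeq2 and 0 to 4 with single mice left out. Over Gab2 alleles, 351 genes became 865 with DESeq2, 202 without those 2 mice and 137 to 525 with single mice left out, and the 4 members 0 to 3. Over Gab2 alleles DESeq2 called Cd34, Slamf1, Cd27, Procr and Esam, and limma-voom Cd34, Slamf1 and Cd27. The cause of these shifts was not tested.

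Without AML WT replicate 3 and AML HET replicate 1, Ly6a changed sign to 0.49 between AML KO and AML WT, to 0.76 between AML HET and AML WT, where limma-voom gave 0.48, and to 0.22 per allele lost. Ifi44 and Ly6i changed sign to 0.22 and 0.59 without those mice. With single mice left out, the ranges between AML KO and AML WT were −1.75 to 0.495 for Ly6a, −0.057 to 0.17 for Cd48, −2.63 to 0.22 for Ifi44 and −2.21 to 0.60 for Ly6i. Between AML HET and AML WT they were −1.02 to 1.66 for Ly6a, −0.34 to 0.22 for Hlf and −0.41 to 0.43 for Mecom, and per allele lost −0.89 to 0.11 for Ly6a and −0.033 to 0.076 for Cd48.

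Deviations from the genotype mean were correlated between mice with the same replicate number. The correlations were −0.509, −0.109 and −0.131 between AML WT and AML KO, and 0.0761 and 0.289 between AML WT and AML HET. Between AML HET and AML KO they were −0.138 and −0.0397. Deviations within a genotype cancel out, so those of the 2 AML HET mice mirror each other. These correlations therefore cannot decide whether the numbers pair the mice. With the replicate block, 19 genes and 0 members passed between AML KO and AML WT, 0 genes between AML HET and AML WT, and 125 genes and 2 members over Gab2 alleles, and Ly6a was 0.94 between AML HET and AML WT. Slamf1, with 10 to 67 counts per mouse, is the member most limited by depth.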
